A study of Mus musculus with 10 samples.

Results

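The EGF receptor family and its ligands were followed through sorted mouse mammary epithelial cells. The family was taken as 10 genes, namely the 4 receptors Egfr, Erbb2, Erbb3 and Erbb4 and the 6 ligands Egf, Tgfa, Hbegf, Btc, Ereg and Nrg1, out of 19935 genes named on the arrays. Each was matched to the arrays by its symbol, was represented by 1 probe set, and passed the filter on dim signals that left 15815 genes for testing. RNA came from the mammary glands of virgin female mice aged 8 to 12 weeks, and each of 10 Affymetrix arrays carried 1 sample. There were 4 arrays of control mice and 3 of Pygo2 SSKO littermates from the Lin-, CD29-high, CD24+ gate, labelled MaSC/basal and called basal here, and 3 arrays of control mice from the Lin-, CD29-low, CD24+, CD61- gate, labelled mature luminal. Cells that carried CD31, CD45 or TER119 had been gated out, and control and SSKO mice shared cages. Pygo2 encodes a PHD-finger co-factor of beta-catenin-dependent transcription. The labels call the mutant cells Pygo2-null but do not spell out SSKO, and the promoter that drives the deletion and the number of animals behind each array are not given in the sources used here. SSKO luminal cells were not analysed here. The arrays are labelled biological replicates, and all p-values measure the spread between these arrays.

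EGF-family ligands are made as membrane-anchored precursors, are released by sheddases such as ADAM17 and ADAM10, and cause the receptors to pair. EGFR binds EGF, TGF-alpha, HB-EGF, betacellulin and epiregulin. ERBB3 and ERBB4 bind the neuregulins, ERBB4 also binds betacellulin, HB-EGF and epiregulin, ERBB2 has no known ligand of its own, and ERBB3 has a weak kinase and signals mainly with ERBB2. In the mammary gland the family is known for its parts in duct growth, alveolar development and, for ERBB2, cancer.

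Levels are given as log2(intensity + 16), and folds and differences are on that scale, which understates changes of dim genes. Levels of different genes are not compared, since each probe set has its own brightness. A mean log2 level of 6.74, the value under which the dimmest 25% of probe sets were dropped, serves as the line for a dim signal. A gene was called at a Benjamini-Hochberg adjusted p under 0.05 over all 15815 genes in limma, a linear model with moderated variances.

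Of the 8 basal markers examined, all 8 were called lower in luminal cells, and of 7 luminal markers all 7 were called higher. The basal marker Mylk had a luminal mean of 6.26, under the line for a dim signal. It passed the filter only through its basal arrays, so that it had to differ. Pygo2 ranged from 8.11 to 9.09 in control basal, from 5.86 to 6.99 in SSKO basal and from 7.90 to 8.53 in luminal arrays, and whether its probe set lies in the deleted part was not determined here. Control luminal array 3 stood apart from the other luminal arrays in basal markers. Their mean level was 9.50 there, against 7.87 and 7.32 in luminal arrays 1 and 2 and 12.45 to 12.69 in the basal arrays. The basal keratin Krt14 was 11.86 in that array and 8.82 and 7.78 in the others, and Krt5 was 11.68 against 9.06 and 7.70. The luminal keratin Krt8 (13.94 to 14.00) and its partner Krt18 (14.36 to 14.53) were alike in all 3 luminal arrays, and Krt8 was also bright in basal arrays, at 12.90 to 13.22. The mean of the 5 luminal progenitor markers was also highest in luminal array 3 (10.05 against 9.38 and 9.51). Aldh1a3 stood out there, at 12.04 against 10.58 and 9.64, whereas Cd14 and Itgb3 were not highest in it. The luminal differences of the members, and of the further ligands, are therefore also given without luminal array 3. Spearman correlations across the tested genes were 0.932 to 0.980 between basal arrays, 0.957 to 0.975 between luminal arrays and 0.702 to 0.809 between the populations.

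The promoters of 4 members that differed between the populations are shown because the data turn on which population has more RNA of which receptor and ligand. Transcription itself was not measured. They are the receptor Egfr and the ligand Tgfa, both higher in basal cells, and the receptor Erbb2 and the ligand Btc, both higher in luminal cells. Each run holds the 250 bases before the RefSeq start site in GRCm38.p6, written 5′ to 3′ along the gene's strand. Capitals mark matches to any of 6 short motifs, searched on both strands and spelled out after the sequences.
Egfr, chr11:16751953-16752202, + strand: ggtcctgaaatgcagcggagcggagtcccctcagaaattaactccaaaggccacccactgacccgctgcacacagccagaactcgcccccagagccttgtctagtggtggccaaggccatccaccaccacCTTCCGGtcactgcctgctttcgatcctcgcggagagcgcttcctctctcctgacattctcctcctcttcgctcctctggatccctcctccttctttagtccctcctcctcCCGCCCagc
Tgfa, chr6:86194972-86195221, + strand: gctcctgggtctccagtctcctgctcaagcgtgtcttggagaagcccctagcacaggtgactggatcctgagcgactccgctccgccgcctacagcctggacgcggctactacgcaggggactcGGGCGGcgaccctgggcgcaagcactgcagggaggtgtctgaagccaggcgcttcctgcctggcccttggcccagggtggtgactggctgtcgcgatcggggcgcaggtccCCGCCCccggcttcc
Erbb2, chr11:98412234-98412483, + strand: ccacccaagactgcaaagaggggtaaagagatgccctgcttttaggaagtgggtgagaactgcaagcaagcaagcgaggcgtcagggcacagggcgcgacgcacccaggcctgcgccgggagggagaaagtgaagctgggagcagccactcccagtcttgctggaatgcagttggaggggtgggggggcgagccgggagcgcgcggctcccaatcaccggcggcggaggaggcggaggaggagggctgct
Btc, chr5:91402995-91403244, - strand: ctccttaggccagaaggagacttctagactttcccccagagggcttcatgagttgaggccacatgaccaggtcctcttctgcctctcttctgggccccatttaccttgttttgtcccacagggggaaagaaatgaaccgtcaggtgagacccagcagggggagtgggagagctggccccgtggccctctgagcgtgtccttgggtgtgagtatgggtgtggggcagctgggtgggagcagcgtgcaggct

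Of the 10 members, 6 had a promoter in the table used, namely these 4, Erbb4 and Egf (with 2 start sites). In these windows the Egfr promoter held 1 SP/KLF match, in the bases 9 to 4 before the start, and 1 ETS match at 120 to 114. The Tgfa promoter held 2 SP/KLF matches, at 126 to 121 and at 15 to 10. Erbb2 and Btc held none of the 6 motifs. Of the windows not shown, 1 of the 2 for Egf held 1 ETS match, at 45 to 39, and Erbb4 held none. Egf was not called between the populations. Among all 32851 promoter windows of that length, 32.7% held the SP/KLF motif, GGGCGG. The ETS motif, CCGGAAG, was in 6.91% of them and the AP-1 motif, TGANTCA, in 6.75%. The TCF/LEF motif, ATCAAAG, was in 3.21%, the GATA motif, AGATAA, in 9.99% and the TATA motif, TATAAA, in 12.4%. No motif contains another. GC content was 60.8% for Egfr, 69.2% for Tgfa, 66% for Erbb2 and 59.6% for Btc, against a median of 52.4% over all windows. CpG dinucleotides numbered 11 in Egfr, 19 in Tgfa and 16 in Erbb2 but 4 in Btc, against a median of 6. A match describes letters in the window and no binding was measured.

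Control luminal cells were compared with control basal cells to see how RNA levels of the family differ between the mature luminal and the basal gate. Egfr, Tgfa, Ereg and Nrg1 were lower in luminal cells, Erbb2, Erbb3, Erbb4 and Btc were higher, and Egf and Hbegf did not pass the test. Thus 8 of 10 members were called, where 44.3% of all tested genes were (24.6% higher and 19.7% lower). In the same 8 members the luminal and control basal arrays did not overlap, as in 46.3% of all tested genes. The median size of the log2 difference, sign aside, was 2.25 over the members and 0.37 over all tested genes. Ereg and Nrg1, each with a luminal mean of 6.13, passed the filter only through their basal arrays, so that they had to differ. Both are included in the counts and in the median of the members. Of 5 luminal progenitor markers, 4 were also called higher in luminal cells and 1, Itgb3, was called lower. The part of progenitor cells in the luminal levels was not tested. In these bulk samples, fewer cells of a type and less RNA per cell cannot be told apart.

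**Figure D1:**
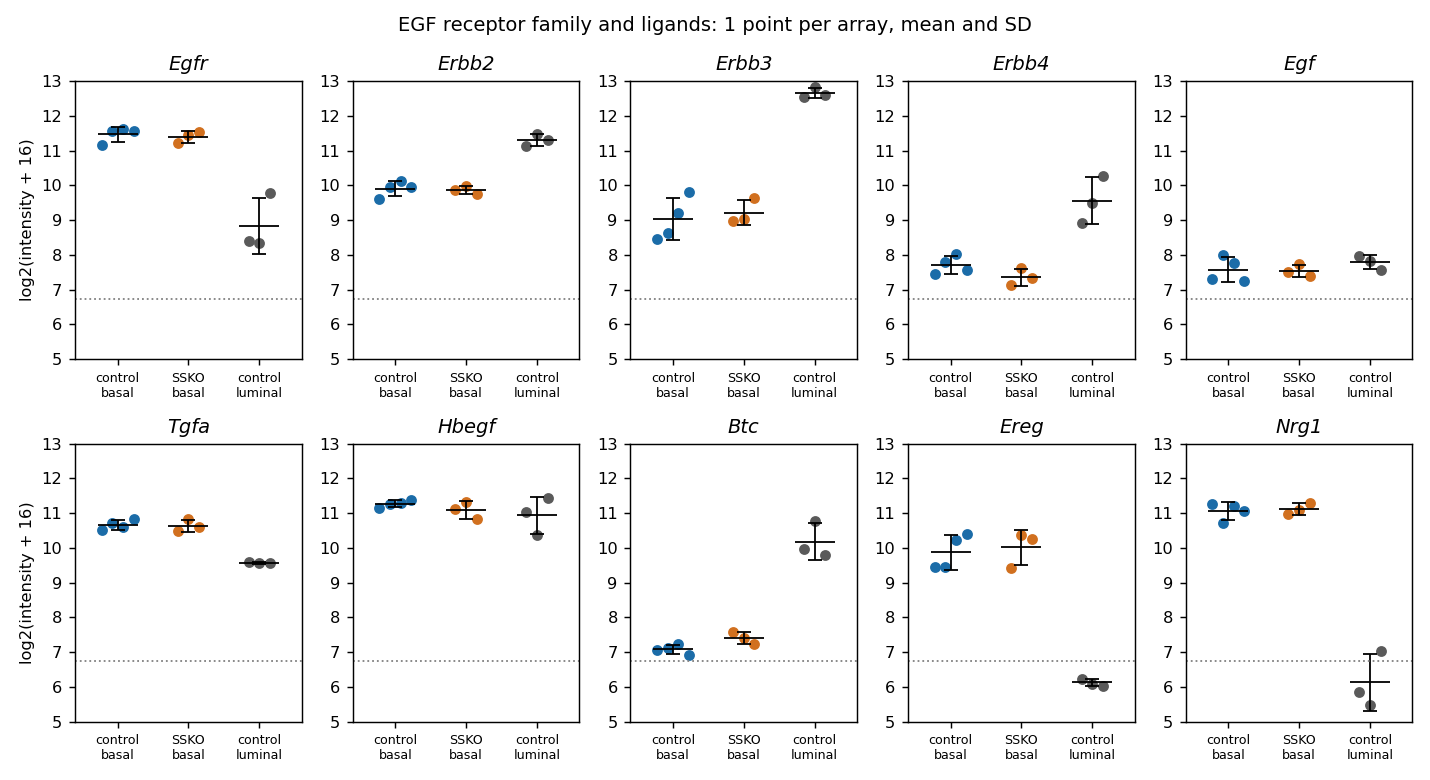
Levels of the 10 family members, as log2(intensity + 16), in the arrays of control basal (4), SSKO basal (3) and luminal cells (3). Points are arrays, bars show the mean and SD of a group, and the dotted line marks 6.74. Luminal arrays lie below both basal groups for Egfr, Tgfa, Ereg and Nrg1 and above them for Erbb2, Erbb3, Erbb4 and Btc. SSKO and control basal arrays overlap for every member but Btc, where they lie close without overlap.

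Among the receptors, Egfr was the only one of the 4 that was lower in luminal cells. Egfr, the receptor of EGF and TGF-alpha, was 11.15, 11.56, 11.62 and 11.56 in control basal arrays 1 to 4 and 8.39, 8.34 and 9.77 in luminal arrays 1 to 3. The highest luminal value, in array 3, was still under every basal value. The mean was 11.47 ± 0.22 (SD, n = 4) in control basal and 8.83 ± 0.81 (SD, n = 3) in luminal cells, 6.23-fold lower (log2 difference -2.64, SE 0.30, limma adjusted p = 2.89e-05). Without luminal array 3 the difference was -3.11 (limma adjusted p = 2.45e-07).

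The 3 other receptors were higher in luminal cells. Erbb2, the partner receptor that has no ligand of its own, was 9.61, 9.94, 10.11 and 9.96 in control basal arrays and 11.14, 11.49 and 11.30 in luminal arrays. The groups were tight and apart. Its mean was 9.90 ± 0.21 (SD, n = 4) in control basal and 11.31 ± 0.17 (SD, n = 3) in luminal cells, 2.66-fold higher (log2 difference 1.41, SE 0.14, limma adjusted p = 1.21e-05). A further probe set that carries the symbols of both Erbb2 and Sympk was left out, since its signal cannot be given to either gene.

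Erbb3, the neuregulin receptor with the weak kinase, was 8.46, 8.64, 9.20 and 9.81 in control basal arrays and 12.54, 12.83 and 12.59 in luminal arrays. The basal arrays were spread over more than 1 log2 unit, with array 4 highest, and the luminal arrays were close together. The mean was 9.03 ± 0.61 (SD, n = 4) in control basal and 12.65 ± 0.15 (SD, n = 3) in luminal cells, a 12.4-fold difference (log2 3.63, SE 0.29, limma adjusted p = 1.97e-06) and the largest of the 4 receptors.

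Erbb4, the neuregulin receptor with an active kinase, was 7.45, 7.78, 8.03 and 7.56 in control basal arrays and 8.92, 9.49 and 10.26 in luminal arrays. Luminal array 3 was the highest of all arrays. The mean was 7.71 ± 0.26 (SD, n = 4) in control basal and 9.56 ± 0.67 (SD, n = 3) in luminal cells, 3.61-fold higher (log2 difference 1.85, SE 0.27, limma adjusted p = 2.08e-04), and the difference was 1.50 (limma adjusted p = 3.35e-04) without luminal array 3.

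Among the ligands, Nrg1, Ereg and Tgfa were lower in luminal cells. Nrg1, neuregulin 1, a ligand of ERBB3 and ERBB4, was 11.26, 10.71, 11.22 and 11.06 in control basal arrays and 5.85, 5.49 and 7.04 in luminal arrays. Luminal arrays 1 and 2 lay under the line for a dim signal and array 3 just above it. The mean was 11.06 ± 0.25 (SD, n = 4) in control basal and 6.13 ± 0.81 (SD, n = 3) in luminal cells, a 30.6-fold difference (log2 -4.94, SE 0.30, limma adjusted p = 2.63e-07), and -5.39 on the log2 scale without luminal array 3 (limma adjusted p = 3.64e-08). The luminal mean was under 6.74, so the full size of the difference is not known. Nrg1 mRNA was low where the mRNA of its receptors Erbb3 and Erbb4 was high.

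Ereg, epiregulin, was 9.44, 9.45, 10.23 and 10.39 in control basal arrays and 6.23, 6.10 and 6.04 in luminal arrays. All 3 luminal values lay under the line for a dim signal, and array 3, the brightest for basal markers, was the lowest. The mean was 9.88 ± 0.50 (SD, n = 4) in control basal and 6.13 ± 0.10 (SD, n = 3) in luminal cells, a 13.5-fold difference whose full size is likewise not known (log2 -3.75, SE 0.28, limma adjusted p = 1.16e-06).

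Tgfa, transforming growth factor alpha, differed less and with very little spread. It was 10.53, 10.71, 10.59 and 10.84 in control basal arrays and 9.61, 9.57 and 9.56 in luminal arrays. The mean was 10.67 ± 0.14 (SD, n = 4) in control basal and 9.58 ± 0.03 (SD, n = 3) in luminal cells, 2.13-fold lower (log2 difference -1.09, SE 0.12, limma adjusted p = 2.86e-05). Luminal array 3 did not differ from the others for this ligand.

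Btc, betacellulin, which binds EGFR and ERBB4, was the member ligand that was higher in luminal cells. It was 7.05, 7.12, 7.23 and 6.91 in control basal arrays, all close to the line for a dim signal, and 9.96, 10.78 and 9.80 in luminal arrays. The mean was 7.08 ± 0.13 (SD, n = 4) in control basal and 10.18 ± 0.53 (SD, n = 3) in luminal cells, 8.58-fold higher (log2 difference 3.10, SE 0.21, limma adjusted p = 5.61e-07).

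Hbegf and Egf did not pass. Hbegf, the heparin-binding ligand of EGFR and ERBB4, was 11.14, 11.28, 11.29 and 11.39 in control basal arrays and 11.04, 10.36 and 11.43 in luminal arrays. Luminal array 3 was above every basal array and array 2 well below them, so the groups overlapped. The log2 difference was -0.33 (SE 0.22, 95% interval -0.82 to 0.15, limma adjusted p = 0.259). Without luminal array 3 it was -0.58 and passed (limma adjusted p = 0.0434), so whether Hbegf counts as lower in luminal cells rests on that array. Egf was 7.30, 7.98, 7.76 and 7.24 in control basal and 7.97, 7.82 and 7.57 in luminal arrays, with overlapping groups and a log2 difference of 0.22 (SE 0.19, 95% interval -0.21 to 0.64, limma adjusted p = 0.415).

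**Figure D2:**
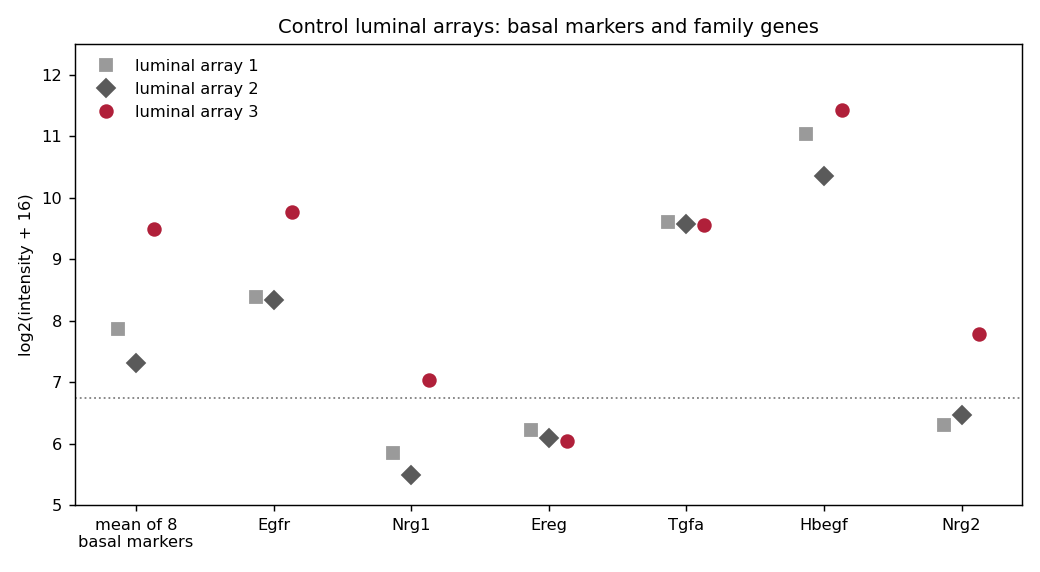
Levels, as log2(intensity + 16), in the 3 control luminal arrays of the mean of 8 basal markers and of 6 EGF-family genes. Points are arrays and the dotted line marks 6.74. Luminal array 3 is above the other luminal arrays for the basal markers (9.50), Egfr (9.77), Nrg1 (7.04), Hbegf (11.43) and Nrg2 (7.78), and not for Ereg (6.04) or Tgfa (9.56). Erbb4, Epgn and Nrg4, which were higher in luminal cells and are not shown, were also highest in that array.

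Basal markers moved with some members within the luminal group and not with others. In luminal array 3, Egfr, Nrg1 and Hbegf were above both other luminal arrays, as was Nrg2, a further neuregulin (7.78 against 6.30 and 6.47). Erbb4, a member that was higher in luminal than in basal cells, was also highest in that array (10.26 against 8.92 and 9.49). The same held for the further ligands Epgn (12.09 against 11.16 and 11.73) and Nrg4 (10.39 against 9.16 and 10.31), both higher in luminal cells. Ereg and Tgfa were not above both other luminal arrays, nor were Erbb2, Erbb3, Btc and Egf. The part of this array's basal and luminal progenitor signals in the values was not tested. Each of the 8 calls was also made without this array. Beside the values already given, the log2 differences without it were 1.41 for Erbb2, 3.66 for Erbb3, -1.08 for Tgfa, -3.71 for Ereg and 3.29 for Btc, and 0.33 for Egf, which again did not pass. The same 8 members also passed in SSKO basal against luminal cells without it, from -3.48 for Erbb3 to 5.45 for Nrg1.

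Markers of stromal cells were also lower in the luminal arrays. All 7 fibroblast markers were called lower there. Their mean level was 10.38 to 11.69 in control basal, 10.04 to 10.50 in SSKO basal and 7.37 to 8.03 in luminal arrays, with 7 of 7 above the line for a dim signal in both basal groups and 5 of 7 in luminal cells. Pericyte markers (4 of 5 called lower, 8.38 to 8.88 in control basal and 7.15 to 7.44 in luminal arrays), immune markers (3 of 6, 7.76 to 8.19 and 7.20 to 7.47) and Schwann cell markers (2 of 3 tested, 9.20 to 9.57 and 8.45 to 8.80) also had called members, all lower. Of the adipocyte markers 1 of 4 was called lower, and of the endothelial markers 0 of 8, with a median difference of -0.78. Over all tested genes, 19.7% were called lower in luminal than in control basal cells. Among the called markers, Lum, Pdgfra, Pdgfrb, Cd74 and Lyz2 had luminal means under the line for a dim signal. These genes passed the filter only through their basal arrays, so that they had to differ. The part of these cells in the higher basal levels of Egfr, Tgfa, Ereg and Nrg1 was not tested. The fibroblast list was brightest in control basal array 3, at 11.69.

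Loss of Pygo2 was examined in the basal gate by comparing SSKO with control basal cells. No member was called, where 0.0379% of all tested genes were called (6 genes, 5 higher and 1, Pygo2, lower, and after quantile normalization 3 genes, 3 higher and 0 lower). Leaving out 1 array gave 2 called genes without control basal array 2, 27 without SSKO array 2 and 1 without SSKO array 3, and the call of Pygo2 was lost in 11 of 22 alternatives. None of the 10 had an unadjusted p under 0.05 in limma, against 3.03% of all tested genes. Log2 differences ran from -0.35 for Erbb4 to 0.34 for Btc, with a median size of 0.11 over the members and 0.10 over all tested genes. The 95% intervals of the 10 members lay between -0.95 and 0.82, so none reached a change of 1 log2 unit in either direction, while smaller changes could not be told from the spread between arrays. Means of Btc, Egf and Erbb4 lay close to the line for a dim signal, where the scale compresses changes.

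**Figure D3:**
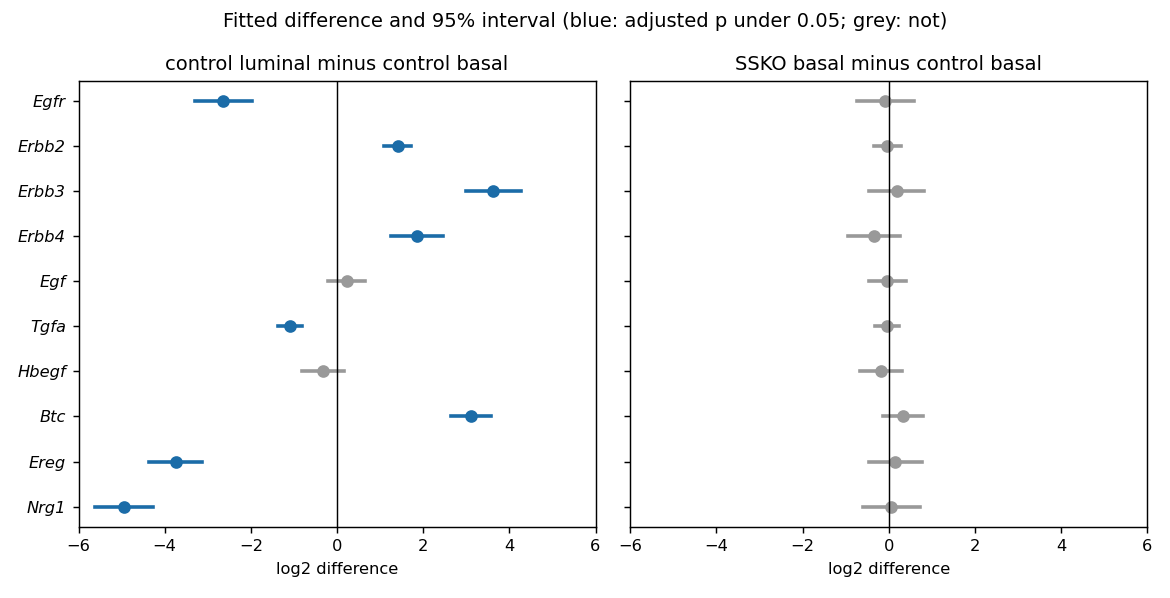
Fitted log2 differences of the 10 members with 95% intervals, control luminal minus control basal on the left and SSKO basal minus control basal on the right. Blue marks an adjusted p under 0.05. The left panel spans -4.94 to 3.63, whereas every value on the right lies between -0.35 and 0.34. Both panels share the control basal arrays.

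No receptor was called, and the SSKO arrays of Egfr, Erbb2 and Erbb3 lay within the range of the control arrays. Egfr was 11.21, 11.45 and 11.52 in SSKO arrays 1 to 3, inside the control range of 11.15 to 11.62 (log2 difference -0.08, 95% interval -0.74 to 0.58, limma adjusted p = 1.00). Erbb2 was 9.87, 9.99 and 9.76 in SSKO arrays, also inside the control range (-0.03, 95% interval -0.35 to 0.28). Erbb3 was 8.98, 9.02 and 9.63, again inside it (0.18, 95% interval -0.46 to 0.82). Erbb4 leaned lower without passing. It was 7.12, 7.62 and 7.32 in SSKO arrays against 7.45 to 8.03 in control arrays, so SSKO arrays 1 and 3 were under every control array and array 2 was not (-0.35, 95% interval -0.95 to 0.25, limma adjusted p = 1.00).

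Among the ligands, Btc was the 1 member whose SSKO and control arrays did not overlap, as in 4.46% of all tested genes. Btc was 7.59, 7.41 and 7.25 in SSKO arrays 1 to 3 against 6.91 to 7.23 in control arrays, with a gap of 0.02 between the nearest values. The mean was 7.42 ± 0.17 (SD, n = 3) against 7.08 ± 0.13 (SD, n = 4), a log2 difference of 0.34 (SE 0.21, 95% interval -0.13 to 0.80) that did not pass (limma adjusted p = 1.00). All SSKO values lay far under the luminal range of 9.80 to 10.78.

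For Ereg the SSKO arrays were 9.43, 10.37 and 10.27, and in both genotypes the arrays fell at about 9.4 or above 10 (0.15, 95% interval -0.47 to 0.76). Nrg1 was 10.97, 11.10 and 11.30 in SSKO arrays against 10.71 to 11.26 in control arrays (0.06, 95% interval -0.61 to 0.73). Tgfa, at 10.49, 10.83 and 10.59, overlapped with control arrays almost fully (-0.03, 95% interval -0.31 to 0.24). These 3 ligands of the basal population showed no shift beyond the spread. Hbegf was 11.11, 11.32 and 10.83, with SSKO array 3 the lowest of the 7 basal arrays (-0.19, 95% interval -0.67 to 0.30), and Egf was 7.50, 7.74 and 7.39 (-0.03, 95% interval -0.45 to 0.40).

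Markers of other cells also differed between the basal arrays. The mean level of the 7 luminal markers was 9.69 to 10.26 in control and 10.42 to 10.81 in SSKO arrays, without overlap, against 13.28 to 13.37 in luminal arrays, and 1 of the 7, Cited1, was called higher in SSKO basal cells (log2 difference 1.56, SE 0.18, limma adjusted p = 0.0103). The median difference of the 7 was 0.39, and the other 6, which did not pass, ranged from -0.34 for Esr1 to 1.44 for Krt19 (these genes were named after their values were seen). Of 5 luminal progenitor markers 0 were called, with a median of 0.04. The 4 members that were higher in luminal cells had SSKO differences of -0.03 for Erbb2, 0.18 for Erbb3, -0.35 for Erbb4 and 0.34 for Btc, and the part of luminal RNA in these was not tested. Endothelial markers had mean levels of 8.27 to 9.99 in control and 8.16 to 10.89 in SSKO arrays, highest in control array 1 and SSKO arrays 1 and 3, and 0 of 8 were called. A fit without those 3 arrays was added once these values were known. It keeps SSKO array 2 alone, whose variance is then taken from the remaining groups, and in it limma again called 0 members, with 0 genes called in all.

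SSKO basal cells were set against control luminal cells to place the mutant cells between the control populations. The same 8 members were called with a luminal difference of the same direction as in control basal cells, where 42.3% of all tested genes were called and 54.4% did not overlap. Ereg and Nrg1 are again among them, and they passed the filter only through their basal arrays. The luminal arrays are shared by both comparisons, so the values stand side by side and are not independent. SSKO minus luminal log2 differences were 2.56 for Egfr, 1.06 for Tgfa, 3.90 for Ereg and 5.0 for Nrg1, and -1.44 for Erbb2, -3.45 for Erbb3, -2.20 for Erbb4 and -2.76 for Btc. The limma adjusted p-values ran from 5.51e-07 for Nrg1 to 1.09e-04 for Erbb4. Hbegf (0.15, SE 0.24) and Egf (-0.24, SE 0.21) again did not pass. The order of the 3 groups was thus luminal lowest for Egfr, Tgfa, Ereg and Nrg1 and luminal highest for Erbb2, Erbb3, Erbb4 and Btc, with SSKO and control basal cells not told apart in any of the 10.

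Other EGF-family ligands also differed between the populations. Nrg4, a neuregulin that binds ERBB4, was 6.08 to 6.49 in control basal arrays, under the line for a dim signal, and 9.16, 10.31 and 10.39 in luminal arrays (log2 difference 3.68, SE 0.26, limma adjusted p = 7.83e-07), or 3.46 without luminal array 3. It passed the filter only through its luminal arrays, so that it had to differ, and the full size of its difference is not known. Epgn, epigen, a ligand of EGFR, was 9.06, 8.00, 9.73 and 10.04 in control basal arrays and 11.16, 11.73 and 12.09 in luminal arrays (2.46, SE 0.44, limma adjusted p = 8.08e-04, and 2.24 without luminal array 3). Nrg2, a ligand of ERBB3 and ERBB4, went the other way, from 8.35 to 9.16 in control basal arrays down to 6.30, 6.47 and 7.78 in luminal arrays (-1.80, SE 0.32, limma adjusted p = 7.93e-04, and -2.27 without luminal array 3). Nrg3 was at 5.58 to 6.16 in every array and was dropped as dim, and Areg, amphiregulin, was not analysed here. In SSKO basal cells the 3 tested ligands did not pass, with log2 differences of 0.55 (SE 0.44) for Epgn, -0.19 (SE 0.32) for Nrg2 and -0.03 (SE 0.26) for Nrg4.

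Of 10 tested genes that act in shedding the ligands, 6 were called higher and 4 lower in luminal cells, beside 44.3% called over all tested genes. The count was 8 to 10 under the alternatives. In SSKO basal against luminal cells 8 of the 10 were called, beside 42.3% of all tested genes. Adam10, a sheddase of betacellulin and EGF, was 9.77 to 10.35 in control basal and 12.36, 12.70 and 12.48 in luminal arrays (log2 difference 2.33, SE 0.17, limma adjusted p = 8.72e-07), the same direction as Btc. Rhbdl2, a rhomboid protease that can cleave EGF, was higher by 1.36 (SE 0.18, limma adjusted p = 1.09e-04). Timp3, an inhibitor of ADAM17 and other metalloproteinases, was 12.73 to 13.01 in control basal and 9.80, 8.95 and 10.54 in luminal arrays (-3.12, SE 0.28, limma adjusted p = 4.98e-06). Adam12, which can release HB-EGF, was 8.27 to 8.52 in SSKO basal arrays and 5.57 to 6.87 in luminal arrays, a difference of 2.19 (SE 0.31, limma adjusted p = 1.77e-04) with the luminal mean of 6.22 under the line for a dim signal. It passed the filter only through its basal arrays, so that it had to differ. In SSKO against control basal cells 0 of 10 passed, with 8 above 0 and a median difference of 0.07, against 0.01 over all tested genes. The share of all tested genes above 0 was not counted, so no direction is read from this. The smallest p belonged to Rhbdf2, an escort of ADAM17 (0.20, SE 0.16, limma adjusted p = 1.00).

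Genes that relay the signal inside the cell were called about as often as genes in general. Of 23 tested, 5 were called higher and 4 lower in luminal cells and 14 were not called, beside 44.3% called over all tested genes, with a median difference of -0.06 against 0.07 for all tested genes. Grb7, an adaptor that binds ERBB2 and ERBB3, was 7.86 to 8.90 in control basal and 11.49, 11.61 and 11.60 in luminal arrays (log2 difference 3.08, SE 0.21, limma adjusted p = 5.19e-07), alongside both of these receptors. Ksr1, a scaffold of the RAF-MEK-ERK cascade, was 10.38 to 10.92 in control basal and 6.83, 6.67 and 7.81 in luminal arrays (-3.62, SE 0.25, limma adjusted p = 6.90e-07). Plcg1, a phospholipase recruited by EGFR, was lower by a log2 value of -1.81 (SE 0.18, limma adjusted p = 9.66e-06). No relay gene passed in SSKO basal cells. The smallest p was that of Pik3cb, a catalytic subunit of PI3-kinase (-0.23, SE 0.17, limma adjusted p = 1.00). The other listed genes were not analysed here.

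The next list holds genes that restrain the receptors or remove them from the surface. Of 23 tested, 13 were called lower in luminal cells, 4 higher and 6 were not called, beside 19.7% lower and 24.6% higher over all tested genes, with a median difference of -0.56. Spry4, a Sprouty inhibitor of RAS-ERK signalling, was 9.92 to 10.19 in control basal and 8.30, 8.19 and 8.61 in luminal arrays (log2 difference -1.63, SE 0.13, limma adjusted p = 2.49e-06). Among those called higher in luminal cells were Cblc, a ubiquitin ligase of the CBL family (2.19, SE 0.15, limma adjusted p = 5.19e-07), and Dusp4, a nuclear phosphatase of ERK (2.41, SE 0.18, limma adjusted p = 1.26e-06). Dusp4 was also the gene of smallest p in SSKO basal cells, where it did not pass (0.31, SE 0.18, limma adjusted p = 1.00) and 0 of the 23 were called.

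The last list holds genes that commonly respond to ERK signalling. Of 12 tested, 6 were called lower in luminal cells, 2 higher and 4 were not called, beside 44.3% called over all tested genes, with a median difference of -0.58. Etv5, an ETS factor, was 9.45 to 10.48 in control basal and 7.98, 8.08 and 7.81 in luminal arrays (log2 difference -2.12, SE 0.22, limma adjusted p = 1.29e-05). Fosl1, an AP-1 subunit, and Epha2, an ephrin receptor, were lower by -1.74 (SE 0.26, limma adjusted p = 2.42e-04) and -1.02 (SE 0.20, limma adjusted p = 0.00158). The count of 8 called genes fell to 5 without control basal array 3 or 4, or without any 1 luminal array, which is close to that share. In SSKO basal cells 0 of 12 passed and 10 were above 0, with a median of 0.08 against 0.01 over all tested genes. The share of all tested genes above 0 was not counted and the genes share the same arrays, so no direction is read from this. Ccnd1, cyclin D1, had the largest difference. It was 11.52, 11.28 and 10.91 in SSKO arrays and 11.53, 9.50, 9.92 and 10.44 in control arrays (0.89, SE 0.38, limma unadjusted p = 0.0391, adjusted p = 1.00), so that control array 1 was above all SSKO arrays and the other control arrays below them.

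**Figure D4:**
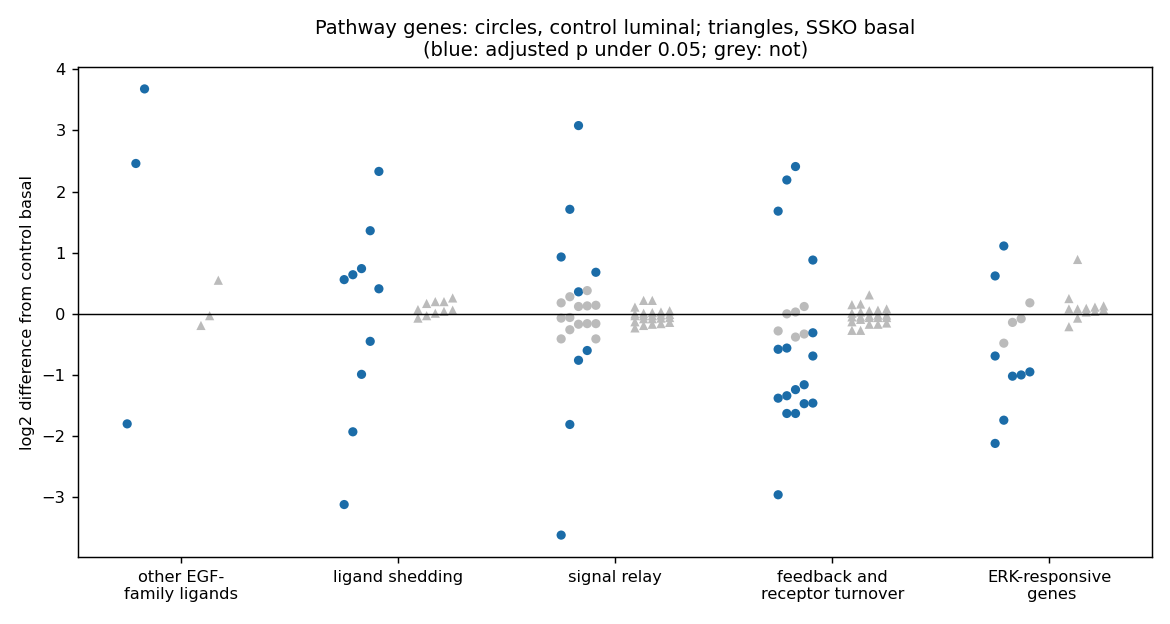
Log2 differences from control basal cells for the genes of 5 EGF-pathway lists, 1 point per gene. Circles are control luminal and triangles SSKO basal cells, and blue marks an adjusted p under 0.05. Luminal differences span -3.62 to 3.68 and no SSKO difference is blue.

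The genes whose pattern over the 10 arrays was most like that of each receptor were found among 14587 named genes, by the root-mean-square distance between log2 values centred on each gene's own mean. Closest to Egfr were the insulin-like growth factor receptor Igf1r, at a distance of 0.13, and the homeobox gene Pknox2, at 0.15. For Erbb2 they were Oxsm and Retreg3, both at 0.11. For Erbb3 they were the tight junction gene Ocln and the homeobox gene Msx2, both at 0.28. For Erbb4 they were Ly6g6c at 0.25 and Anxa9, an annexin, at 0.27. Igf1r averaged 11.43 in control basal, 11.34 in SSKO basal and 8.82 in luminal cells. That it was high in the same groups as Egfr follows from how it was chosen. The distance is not scaled to the size of a gene's differences, so it is not compared between receptors. The arrays share their preparation, and a distance describes these 10 arrays only.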

How the data were processed

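The deposited table holds 1 probe set intensity per array on a linear scale for 28815 probe sets. Expression Console 1.1 and PLIER 2.0, a probe summary method, are listed without roles in the submitters' processing notes, and any scaling between arrays is not stated there. Array medians were 205 to 228. It carries no detection calls, and the number of arrays limits the precision. The supplied platform annotation gave 21780 probe sets 1 symbol, 1605 several and 5430 none, and 21689 of the single symbols were matched to the RefSeq gene table of GRCm38.p6 by gene identifier.

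Values were taken as log2(intensity + 16). Probe sets whose mean was among the lowest 25% (under 6.74) were dropped and each gene was represented by its brightest probe set. limma 3.58.1 in R 4.3.3 fitted 3 group means to 10 arrays, with 7 residual degrees of freedom, two-sided tests and Benjamini-Hochberg adjustment over 15815 genes. The steps were tested on simulated data. The members and lists were chosen with earlier results of these data known. All 10 members are named with every array. Named from each of 5 pathway lists were up to 3 called genes of smallest p per comparison, or the gene of smallest p, and every tested further ligand. For each receptor the 2 genes of nearest pattern were named, without predicted genes, olfactory and vomeronasal receptors and small RNAs. Promoters came from RefSeq (GRCm38.p6). The alternatives are given in the closing section. Figures used matplotlib 3.10.9.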

Additional observations from a re-analysis of the deposited data

Results flagged for a closer look

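In 34 groups of 4 control basal arrays, 1 per named gene, 5 had an array whose gap to the nearest of the others took up more of the group's range than Dixon's 95% limit allows, where chance flags about 1 in 20. Egfr was 11.15 in control basal array 1, against 11.56 to 11.62 in the others. Dusp4 was also lowest in that array, at 9.25 against 9.68 to 9.76. In control basal array 2, Adam10 was 9.77 against 10.31 to 10.35 and Spry4 was 10.19 against 9.92 to 9.96. Krt5 was 13.55 in control basal array 4 against 13.20 to 13.22.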

How the results depend on the processing

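Each result was recomputed under 22 alternatives. These were 11 set in advance (pseudocounts of 1 and 64, no filter or the lowest 40% dropped, quantile normalization, centring, the mean over probe sets, a variance trend, array weights, only the compared groups, and the replicate number as a block), 10 that leave out 1 array, and the 1 without the 3 basal arrays brightest for endothelial markers, added after the data had been seen. The number of members called was 0 in SSKO against control basal cells and 8 in SSKO basal against luminal cells in all of them. It was 8 in luminal against control basal cells except without luminal array 3, where it was 9 through Hbegf. With the replicate block these counts were 0, 8 and 8. The numbers were not taken to pair the samples. Deviations from the group means correlated at 0.63, 0.46 and 0.05 across genes for control and SSKO basal arrays 1, 2 and 3. The best correlations of these control arrays with an SSKO array of another number were -0.20, -0.22 and 0.17. Control arrays 1 and 2 thus correlated best with their own number and array 3 did not, and whether such arrays share a batch was not tested. With the block, 5 genes in place of 6 were called in SSKO basal cells.

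Signs turned only for differences that were never called. In SSKO against control basal cells, Egf went from -0.03 to 0.02 with array weights, Tgfa from -0.03 to 0.02 with the replicate block, and without the 3 endothelial-bright arrays Erbb3 was -0.19, Egf 0.07 and Tgfa 0.11. Leaving out 1 array gave ranges of -0.19 to 0.01 for Egfr, -0.13 to 0.04 for Erbb2, -0.03 to 0.44 for Erbb3, -0.14 to 0.11 for Egf, -0.13 to 0.04 for Tgfa, -0.02 to 0.44 for Ereg, -0.06 to 0.14 for Nrg1 and -0.12 to 0.03 for Nrg4, and of -0.15 to 0.39 for Hbegf in SSKO basal against luminal cells. The cause was not tested. Without the 3 endothelial-bright arrays, which leaves fewer samples, Nrg2 (1.45, limma adjusted p = 0.0723) and Epgn (-2.15, 0.0591) lost their calls in SSKO basal against luminal cells. The count over all genes in SSKO against control basal cells was 3 with quantile normalization, 0 without the 3 endothelial-bright arrays, and 1 to 27 without 1 array. The call of Pygo2 (-2.34, limma adjusted p = 0.0441) was lost in 11 of 22 alternatives, with a difference of -2.14 to -2.76.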
